A study of Mus musculus with 5 samples.

Results

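Open chromatin of reporter-low γδ thymocytes that carried a Sox13 transgene was set against that of reporter-high γδ thymocytes without the transgene. The comparison used the deposited peak lists of 2 of the 5 libraries in the series, transgenic SOX13lo and non-transgenic SOX13hi, on the autosomes only. The question was whether a Sox13 transgene brings reporter-low cells close to reporter-high cells. Non-transgenic SOX13lo cells served as the reference for distance, and transgenic SOX13hi cells and CD4+CD8+ double-positive (DP) thymocytes were consulted where a region of one of the 2 libraries was looked up elsewhere.

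γδ T cells carry an antigen receptor built from γ and δ chains and develop in the thymus beside the αβ lineage, of which DP thymocytes are an intermediate stage. SOX13 is an HMG-box transcription factor found early in γδ T cell development, and it is known for its part in the thymic programming of γδ cells that make interleukin 17. ATAC-seq uses a transposase that inserts sequencing adapters into open DNA, so a peak marks a stretch that was accessible in some of the cells.

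The SOX13hi and SOX13lo cells came from C57BL/6 mice with the genotype TCRbeta KO.Sox13 ECFP KI/+, and both transgenic fractions from mice with the genotype TCRbeta KO.Sox13tg+.Sox13 ECFP KI/+. All 4 γδ groups therefore shared the TCRbeta knockout and 1 Sox13 allele with an ECFP knock-in, whereas the DP cells were wild type. γδ cells were sorted as CD24+ with high CFP (SOX13hi) or with low or no CFP (SOX13lo), with 40000 sorted cells going into each library. Each group holds 1 library, so no difference below has a replicate check and no p-value is given. The fraction names follow the CFP reporter of the knock-in allele. The data hold no measurement of SOX13 protein from either the allele or the transgene. Nothing in the sources used here gives the promoter of the transgene, the age or number of the animals, or any pooling of them. The cell type of each library was not checked against marker genes, because the gene positions at hand are on another genome build than the peaks (mm9).

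Each library contributed as many of its highest-scoring peaks as the transgenic SOX13lo list holds in all, and the autosomal ones among them were kept. The score is the authors' own whole number for each peak. Its meaning is not stated, so it served only to rank peaks within a list. This left 32167 autosomal peaks for transgenic SOX13lo, 32315 for SOX13hi and 32349 for SOX13lo. The transgenic SOX13lo list was used whole, down to its lowest score of 8, whereas SOX13hi was limited from 54435 peaks at a score of 10 and SOX13lo from 67482 peaks at a score of 15. The transgenic SOX13lo peaks were narrow, with a median width of 30 bp against 98 bp in SOX13hi and 127 bp in SOX13lo. They covered 2.57 Mb, compared with 4.32 Mb in SOX13hi and 5.46 Mb in SOX13lo. Read depth is not known for any library, so narrower or fewer peaks cannot be told apart from shallower sequencing.

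The transgenic SOX13lo peak list was about as far from the SOX13hi list as from the SOX13lo list. It was farther from both than these were from each other. The transgenic SOX13lo list was used whole, and the other lists were upper parts of longer ones. A distance between cells therefore cannot be told apart here from a difference in depth or peak width. A transgenic SOX13lo peak was counted as met when at least 1 bp of it lay in a peak of the other list. Of the 32167 transgenic SOX13lo peaks, 18225 met a SOX13hi peak, which is 56.7% (95% interval 56.1 to 57.2%). More of the same peaks, 19585 or 60.9% (60.4 to 61.4%), met a SOX13lo peak. The difference was -4.23 percentage points (-4.80 to -3.65), in favour of SOX13lo, and the share met was larger in SOX13lo than in SOX13hi on 19 of 19 autosomes. In the opposite direction the 2 fractions gave almost the same value. Transgenic SOX13lo peaks met 48.8% of SOX13hi peaks (48.3 to 49.4%) and 48.9% of SOX13lo peaks (48.3 to 49.4%). As a yardstick, 67.1% of SOX13hi peaks met a SOX13lo peak. All intervals given with shares are exact Clopper-Pearson 95% intervals, which take peaks as independent and cover counting error alone, not how much animals or sorts vary.

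An index that uses both directions gave the same picture. Peaks of all 5 libraries were merged into regions wherever they overlapped by at least 1 bp, and the Jaccard index was taken as the regions present in both libraries over those present in either. It was 42.2% (41.7 to 42.7%) for transgenic SOX13lo with SOX13hi and 42.3% (41.8 to 42.8%) for transgenic SOX13lo with SOX13lo, a difference of -0.148 percentage points with an interval from -0.864 to 0.567 that includes 0. SOX13hi and SOX13lo had an index of 51.3%. Transgenic SOX13hi, the other sort fraction of the transgenic genotype, had 44.1% with transgenic SOX13lo and 55.0% with SOX13hi. The index of transgenic SOX13lo with DP was 37.5% (37.0 to 37.9%), below that with any of the γδ libraries. By peaks met, DP was not apart from SOX13hi, since 57.1% (56.6 to 57.6%) of transgenic SOX13lo peaks met a DP peak. The index with DP was 42.3% for SOX13hi and 44.5% for SOX13lo, at or above their indices with transgenic SOX13lo. Of the 36152 regions present in transgenic SOX13lo or SOX13hi, 8893 or 24.6% were in transgenic SOX13lo without SOX13hi and 12006 or 33.2% in SOX13hi without transgenic SOX13lo. Set against SOX13lo, the corresponding shares of 37518 regions were 22% and 35.6%. After merging, the lists held 24146 regions for transgenic SOX13lo, 27259 for SOX13hi and 29257 for SOX13lo. The larger share on the non-transgenic side follows from these unequal totals.

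Which non-transgenic fraction lay nearer depended on how overlap was counted. With peak centres within 200 bp of each other, a rule that does not use peak width, 69.8% of transgenic SOX13lo peaks matched SOX13hi and 69.9% matched SOX13lo. When each of the overlapping peaks had to cover at least 50% of the other, the order turned, with 14.5% for SOX13hi and 11.7% for SOX13lo. It also turned when SOX13hi and SOX13lo were shortened by score until each covered as many bases as transgenic SOX13lo. Then 36.5% were met in SOX13hi and 33.1% in SOX13lo. This setting leaves SOX13hi and SOX13lo with fewer peaks than transgenic SOX13lo, so list lengths differ there too. Across 11 ways of preparing the lists, the Jaccard index of transgenic SOX13lo was higher with SOX13hi in 5 and with SOX13lo in 6. The 5 include the full lists and the upper 50% of each list, where list lengths differ and SOX13lo is longer than SOX13hi. Over the full lists the index was 35.1% with SOX13hi and 29.2% with SOX13lo, whereas the shares of peaks met were 63.0% and 68.2%. In 11 of 11, transgenic SOX13lo was farther from SOX13hi than SOX13lo was. In 11 of 11 it was nearer transgenic SOX13hi than SOX13lo, and in 9 of 11 it was nearer transgenic SOX13hi than SOX13hi. The exceptions were also settings in which list lengths differ. They were the full lists, with 32.4% for transgenic SOX13hi and 35.1% for SOX13hi, and the upper 50% of each list, with 39.4% and 42.1%.

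**Figure D1:**
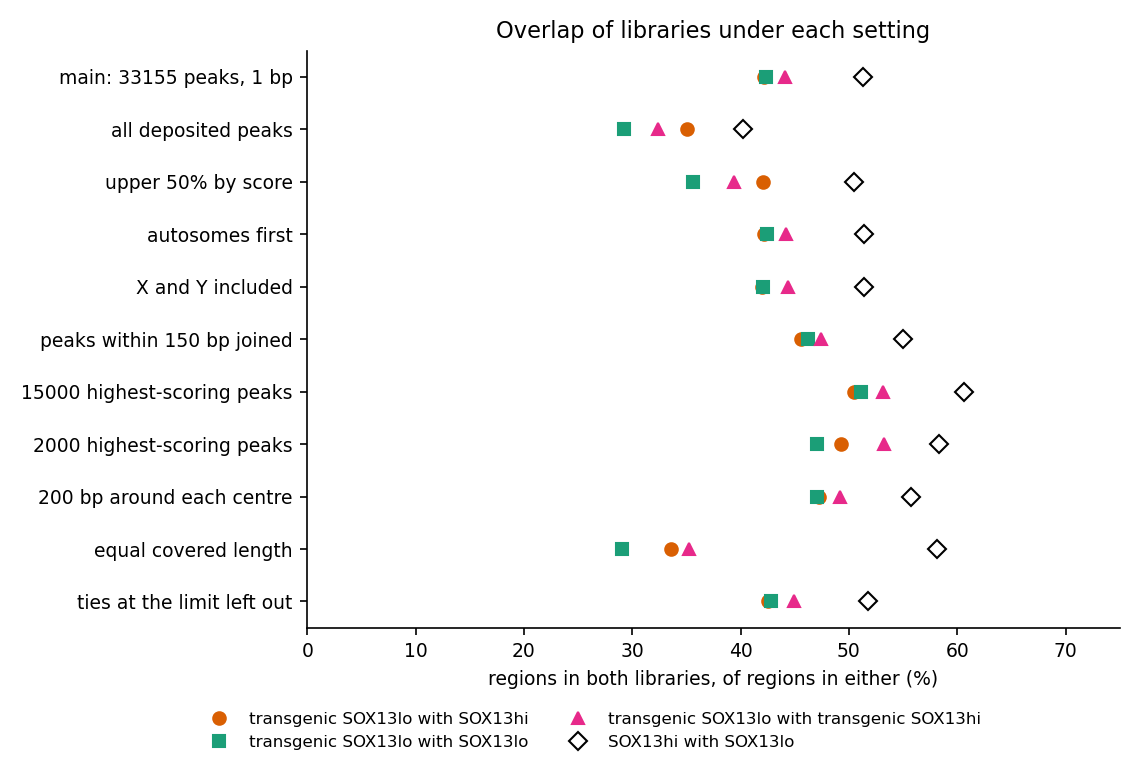
Jaccard index of autosomal regions (x axis, percent of the regions present in either library that were present in both) for 4 pairs of libraries under 11 ways of preparing the lists (y axis), each point 1 pair of libraries. The open diamonds, SOX13hi with SOX13lo, lie to the right of the circles and squares in every row, whereas circles (SOX13hi) and squares (SOX13lo) change order between rows. One row also includes chromosomes X and Y.

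The strongest transgenic SOX13lo peaks were shared with both fractions, and sharing fell towards the weak end of the list. The list was divided into 10 parts of equal size by score, part 1 holding the highest. In part 1 of the transgenic SOX13lo list, 92.2% of peaks met a SOX13hi peak and 92.8% met a SOX13lo peak. In part 2 the shares were 89.0% for SOX13hi and 88.0% for SOX13lo. The gap in favour of SOX13lo opened below that, with 76.4% against 78.3% in part 3 and 29.5% against 36.9% in part 10. Read from the SOX13hi list, part 1 was met at 91.5% (90.5 to 92.4%) in transgenic SOX13lo and 93.8% (92.9 to 94.6%) in SOX13lo. The gap widened in the parts below. SOX13hi peaks of part 2 were met in transgenic SOX13lo in 81.4% (80.1 to 82.8%) and in SOX13lo in 91.3% (90.3 to 92.2%). In part 5 the shares were 47.2% and 72.0%, and in part 10 they were 18.2% and 38.4%. Transgenic SOX13hi met 94.0% of the SOX13hi peaks of part 2 and 75.65% of those of part 5, both above the shares in SOX13lo. In parts 6 to 10 it was below SOX13lo, with 31.1% in part 10.

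**Figure D2:**
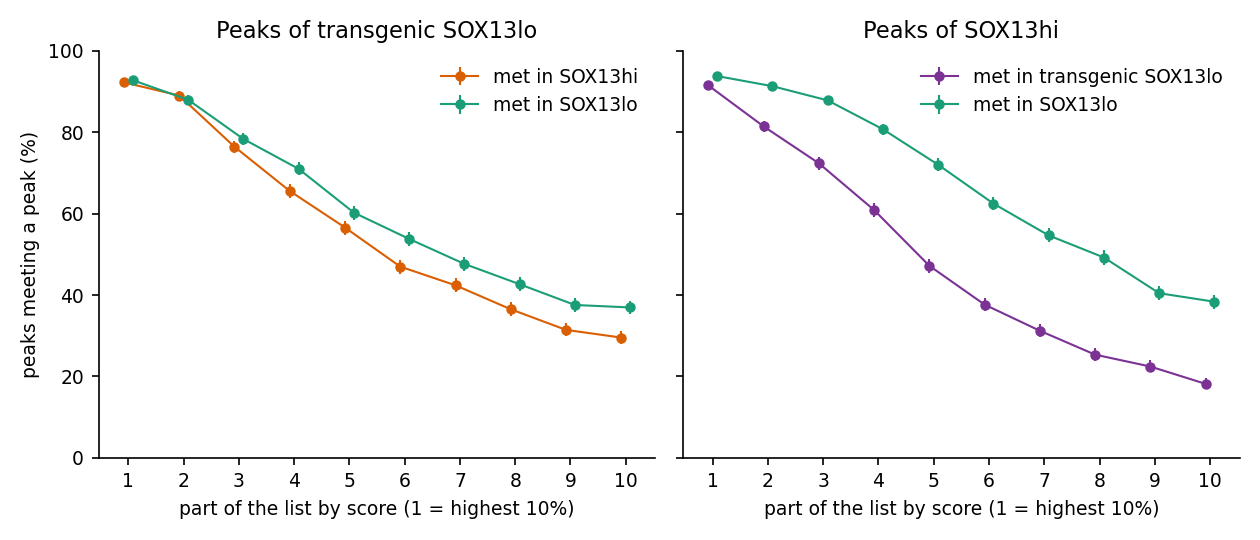
Percent of peaks that met a peak of another library (y axis) in 10 equal parts of the list ordered by score, 1 being the highest (x axis), for transgenic SOX13lo peaks (left) and SOX13hi peaks (right). Points are single libraries and bars are exact 95% intervals for counting error. On the left the curves for SOX13hi and SOX13lo start together at 92.2% and 92.8% and separate from part 3, and on the right transgenic SOX13lo lies below SOX13lo in all 10 parts.

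Peak width moved with these shares. Peaks of 28 to 30 bp made up 16164 of the 32167 transgenic SOX13lo peaks, and 41.6% of them met a SOX13hi peak and 47.8% a SOX13lo peak. Among transgenic SOX13lo peaks over 150 and up to 400 bp the shares were level, at 92.8% and 92.7%. Among those over 400 bp they were 97.5% and 98.0%. These width classes do not separate width from score, since narrow peaks were also low-scoring. The median score was 9 at 28 to 30 bp against 39 over 150 and up to 400 bp. With the same peaks of every list set to 200 bp around their centres, 69.8% met SOX13hi and 69.8% SOX13lo. The difference was then -0.0218 points, against -4.23 with the deposited widths. The cause of the SOX13lo advantage was not tested.

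Sorted by the fraction they met, 14420 transgenic SOX13lo peaks (44.8%) met both SOX13hi and SOX13lo, 3805 (11.8%) met SOX13hi only, 5165 (16.1%) met SOX13lo only and 8777 (27.3%) met neither. Peaks met in both had a median score of 20 and those met in neither a median of 9. Transgenic SOX13hi, which took no part in this sorting, held 84.0% of the peaks met in both, 60.5% (58.9 to 62.0%) of those met in SOX13hi only, 51.5% (50.1 to 52.9%) of those met in SOX13lo only and 22.8% of those met in neither. DP cells held 52.0% of the peaks met in SOX13hi only and 53.15% of those met in SOX13lo only. Most transgenic SOX13lo peaks that did not meet SOX13hi were nevertheless close to one. Against the full SOX13hi list, 63.0% met a peak, a further 21.3% lay within 200 bp of one, and 5.43% were more than 10 kb from any. Of the SOX13hi peaks kept at equal list length, 17.0% were more than 10 kb from any transgenic SOX13lo peak. These directions are not like for like. The full SOX13hi list that was searched holds 53009 autosomal peaks, and the transgenic SOX13lo list 32167.

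Strong SOX13hi sites were missing from transgenic SOX13lo more often than the reverse. Of the 3232 highest-scoring SOX13hi peaks, 10% of the list, 118 or 3.65% (3.03 to 4.36%) had no transgenic SOX13lo peak within 1 kb. The same SOX13hi peaks lacked a SOX13lo peak within 1 kb in 13 cases (0.402%) and a transgenic SOX13hi peak in 1 case (0.0309%). In part 1 of transgenic SOX13lo, 31 of 3217 peaks (0.964%, 0.656 to 1.36%) had no SOX13hi peak within 1 kb, 28 (0.870%) had no SOX13lo peak and 7 (0.218%) had no transgenic SOX13hi peak.

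Regions that told the 2 non-transgenic fractions apart were held by transgenic SOX13lo at similar, low rates. Of 8104 regions in SOX13hi and not in SOX13lo, transgenic SOX13lo held 1492, or 18.4% (17.6 to 19.3%). Of 10102 regions in SOX13lo and not in SOX13hi it held 2124, or 21.0% (20.2 to 21.8%), which gave a ratio of 0.876 (0.825 to 0.929). Transgenic SOX13hi held 37.55% of the SOX13hi regions and 26.2% of the SOX13lo regions, a ratio of 1.43 (1.37 to 1.49). Among regions whose score lay in the upper 25% of their list, transgenic SOX13lo held 103 of 277 SOX13hi regions (37.2%) and 76 of 192 SOX13lo regions (39.6%), with a ratio of 0.939 whose interval, 0.745 to 1.185, includes 1. Transgenic SOX13hi held 80.1% and 47.9% of these. The intervals of the ratios are log-normal approximations. Over the full lists the ratio of transgenic SOX13lo was 1.07, and with the 2000 highest-scoring peaks of each list it was 1.27, so its side of 1 changed with list length.

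At 5394 regions SOX13hi and SOX13lo both held a peak and transgenic SOX13lo did not. Transgenic SOX13hi held 66.5% of these, and DP held 58.1%. A further 6769 regions were in transgenic SOX13lo and in neither non-transgenic γδ list, and transgenic SOX13hi held only 13.4% of them and DP 16.55%. At the 13761 regions that all 3 libraries shared, transgenic SOX13hi was present in 93.9%.

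Regional differences were read from the number of regions per 100 kb window, after scaling the libraries to equal totals. Of 11128 windows with a region in any library, 98 (0.881%) held at least 5 more regions in transgenic SOX13lo than in SOX13hi and 55 (0.494%) at least 5 fewer. Against SOX13lo the counts were 86 (0.773%) and 48 (0.431%). Between SOX13hi and SOX13lo only 34 windows (0.306%) differed by 5 or more in favour of SOX13hi and 37 (0.332%) in favour of SOX13lo. With 1 library per group these are windows past a size, not past a test.

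**Figure D3:**
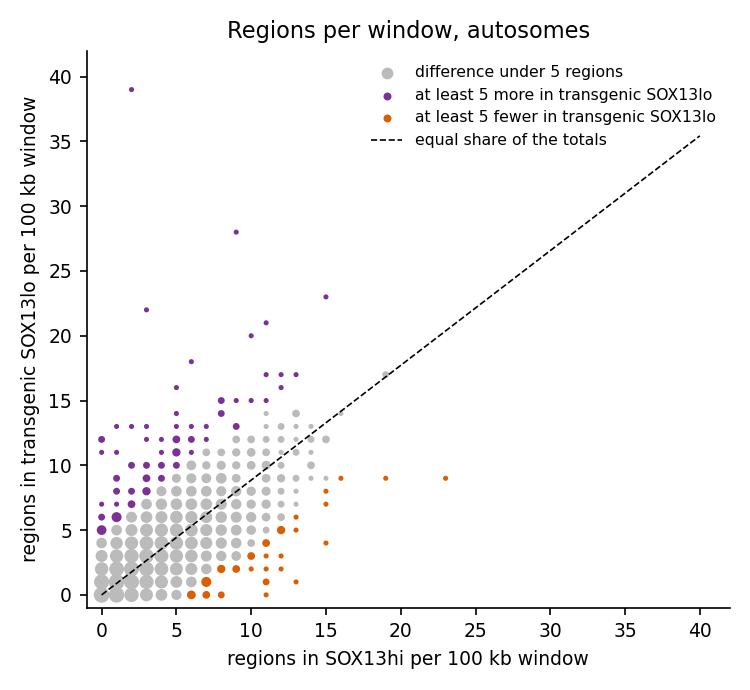
Regions per 100 kb window on the autosomes in SOX13hi (x axis) and in transgenic SOX13lo (y axis). Each point is a combination of counts and its area grows with the number of windows that share it, the dashed line marks equal shares of the 2 totals, and 3 windows with at least 20 regions in each γδ library compared are not drawn. The point at 2 and 39 regions and the point at 9 and 28 lie far above the line, and the point at 23 and 9 lies farthest below it.

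The windows that differed by at least 5 scaled regions between SOX13hi and SOX13lo were looked up in the transgenic libraries. Since they were chosen for a high count in 1 library, a lower count in any other library follows in part from the choice, and the values are a description. The 34 windows higher in SOX13hi were chosen for that difference, with scaled means of 8.26 regions in SOX13hi and 3.20 in SOX13lo. Transgenic SOX13lo averaged 3.94 there and transgenic SOX13hi 5.46. Transgenic SOX13lo was nearer SOX13hi in 8 of these windows (23.5%, 10.8 to 41.2%) and nearer SOX13lo in 26, and transgenic SOX13hi was nearer SOX13hi in 16. In the 37 windows chosen as higher in SOX13lo, the means were 4.55 in SOX13hi and 10.1 in SOX13lo, and transgenic SOX13lo averaged 6.08 and transgenic SOX13hi 5.55. Here transgenic SOX13lo was nearer SOX13hi in 28 windows (75.7%, 58.8 to 88.2%) and transgenic SOX13hi in 32 (86.5%, 71.2 to 95.5%). It lay below both non-transgenic fractions in 9 of the 34 windows and in 7 of the 37.

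**Figure D4:**
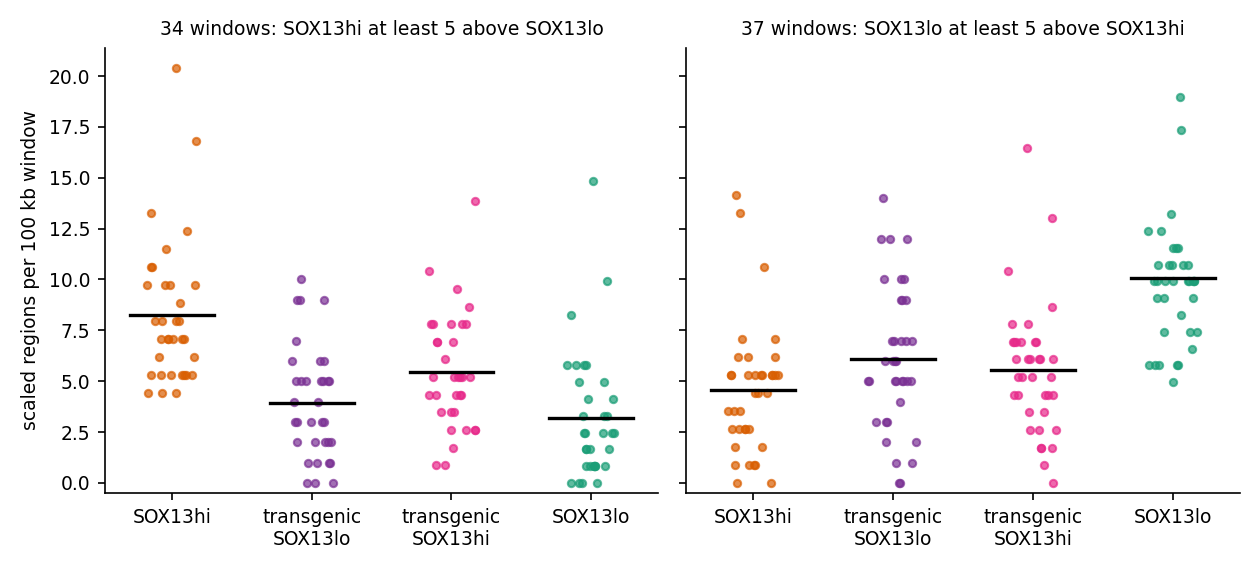
Scaled regions per 100 kb window (y axis) in 4 γδ libraries (x axis) for the 34 windows higher in SOX13hi (left) and the 37 windows higher in SOX13lo (right), each point a window and each bar the mean over windows. Transgenic SOX13lo has a mean of 3.94 on the left and 6.08 on the right, and transgenic SOX13hi 5.46 and 5.55. The high mean of SOX13hi on the left and of SOX13lo on the right is set by how the windows were chosen.

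Among windows with fewer than 20 regions in at least 1 of transgenic SOX13lo, SOX13hi and SOX13lo, the largest excess in transgenic SOX13lo was found on chromosome 8, between 19900001 and 20000000, where this library had 39 regions (exact Poisson 95% interval 27.7 to 53.3), against 2 in SOX13hi (0.242 to 7.22), 2 in SOX13lo, 5 in transgenic SOX13hi and 0 in DP. Its peaks were weak, with highest scores of 19 and 23 in its 2 clusters, and over the full lists SOX13lo held 11 regions there and transgenic SOX13hi 20. Between 90100001 and 90200000 of chromosome 1, transgenic SOX13lo counted 28 regions (18.6 to 40.5), SOX13hi 9 (4.12 to 17.1), SOX13lo 12, transgenic SOX13hi 7 and DP 3. Transgenic SOX13hi did not share either excess at equal list length. Over the full lists the chromosome 1 window counted 28, 14, 22, 24 and 19 regions in the same order of libraries.

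Transgenic SOX13hi did share the excess of 2 other windows. Between 27300001 and 27400000 of chromosome 2, transgenic SOX13lo counted 22 regions (13.8 to 33.3) and transgenic SOX13hi 20, against 3 in SOX13hi (0.619 to 8.77), 3 in SOX13lo and 6 in DP. Over the full lists this window counted 21 and 27 in the transgenic libraries, against 5 in SOX13hi, 8 in SOX13lo and 22 in DP. Between 135200001 and 135300000 of chromosome 1 the counts were 13 (6.92 to 22.2) in transgenic SOX13lo and 9 in transgenic SOX13hi, against 1 in SOX13hi, SOX13lo and DP each. The absence from SOX13lo and DP depended on list length. Over the full lists SOX13lo counted 8 there and DP 10, beside 13 in transgenic SOX13lo, 19 in transgenic SOX13hi and 1 in SOX13hi. The fifth window, from 3000001 to 3100000 of chromosome 18, counted 18 regions for transgenic SOX13lo, 6 for SOX13hi, 7 for SOX13lo, 8 for transgenic SOX13hi and 3 for DP. With the full lists these counts were 17, 8, 9, 13 and 10.

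In 4 of the 5 windows named for a higher count in SOX13hi, every library held more regions than transgenic SOX13lo. Between 58000001 and 58100000 of chromosome 2, SOX13hi counted 23 regions (14.6 to 34.5) and transgenic SOX13lo 9 (4.12 to 17.1), with 18 in SOX13lo, 16 in transgenic SOX13hi and 12 in DP. Between 152600001 and 152700000 of chromosome 3 the counts were 13 in SOX13hi, 1 in transgenic SOX13lo, 7 in SOX13lo, 8 in transgenic SOX13hi and 8 in DP. Between 108700001 and 108800000 of chromosome 6 they were 15, 4, 14, 13 and 18 in the same order of libraries. Between 80100001 and 80200000 of chromosome 9 they were 11, 1, 6, 9 and 6. SOX13hi was itself above SOX13lo in each of these 4 windows.

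In the window from 19700001 to 19800000 of chromosome 15, SOX13hi held 11 regions (5.49 to 19.7) and transgenic SOX13lo 0 (0 to 3.69), while SOX13lo held 1, transgenic SOX13hi 4 and DP 0. Over the full lists SOX13hi had 15 regions in this window, SOX13lo 2, transgenic SOX13hi 5, DP 1 and transgenic SOX13lo 0. In this window the counts of transgenic SOX13lo, SOX13lo and DP were all at 0 or 1.

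There were 3 windows dense in every γδ library compared, given apart for that reason. The largest, from 3000001 to 3100000 of chromosome 11, counted 133 regions for transgenic SOX13lo, 102 for SOX13hi and 111 for SOX13lo. Its scaled excess of 42.7 regions over SOX13hi was above the 37.2 of the window on chromosome 8. The same stretch of chromosome 9 counted 67, 62 and 63, and the one from 128700001 to 128800000 of chromosome 6 counted 20, 23 and 27.

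Along whole chromosomes and at equal list length, transgenic SOX13lo had its largest relative excess over SOX13hi on chromosome 11, with 57.4 of each 1000 autosomal peaks against 45.1 in SOX13hi, a ratio of 1.27. Without the dense windows the ratio was 1.29. SOX13lo had 50.5 per 1000 on chromosome 11, transgenic SOX13hi 52.3 and DP 63.0. Chromosome 19 followed with 31.3 against 25.9, a ratio of 1.21. Over the full lists chromosome 11 had 57.4 against 48.2 and no longer led chromosome 19, which had 31.3 against 25.9. Chromosome 3 had the lowest ratio, 0.867, with 58.0 against 66.9. Chromosome 11 was also where transgenic SOX13lo peaks met SOX13hi least, in 44.1%, and the share met in SOX13lo there was 54.15%.

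The 10 highest-scoring peaks of each list that met no peak of the other full list were mostly displaced by a short distance. This does not extend to all strong peaks. Of the 3232 SOX13hi peaks of part 1, 2957 met a transgenic SOX13lo peak and 118 had none within 1 kb. Of the 10 highest-scoring transgenic SOX13lo peaks that met no peak of the full SOX13hi list, 8 had a SOX13hi peak within 1 kb. All 10 of the highest-scoring SOX13hi peaks that met no transgenic SOX13lo peak had one at 7 to 424 bp. On chromosome 13, for example, a transgenic SOX13lo peak at 65341972 to 65342023 (score 285) ended 112 bp before a SOX13hi peak at 65342135 to 65342720 (score 429), and a transgenic SOX13hi peak met both. The 5 highest-scoring peaks that met a peak of the other list were at the same 5 places in both lists, led by a peak on chromosome 2 that began at 98507278 in transgenic SOX13lo and at 98507277 in SOX13hi, and all 5 libraries held each of them.

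Peaks with no counterpart within 1 kb in the full list were looked at next, a choice made after the values were seen. All 10 of the highest-scoring such transgenic SOX13lo peaks met a transgenic SOX13hi peak, whereas 2 met a SOX13lo peak and 3 a DP peak. They fell on 5 chromosomes, with 5 of them in 1 cluster on chromosome 1 and 2 on chromosome 4. Among the 10 corresponding SOX13hi peaks, 9 met a SOX13lo peak, 9 a transgenic SOX13hi peak and 6 a DP peak. The highest-scoring of these, on chromosome 1 at 66599353 to 66599393, had a score of 246 in SOX13hi and 141668 bp to the nearest transgenic SOX13lo peak, and it was met in SOX13lo and transgenic SOX13hi. The SOX13hi peak on chromosome 9 at 80165861 to 80165978, with a score of 230, lay in the window with 11 against 1 regions above and was present in all libraries other than transgenic SOX13lo. The peak on chromosome 14 at 37129986 to 37130074 (score 213) was the 1 of the 10 that SOX13lo did not hold.

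Of the 10 such transgenic SOX13lo peaks, 8 lay in 3 loci, which were singled out after their values were seen. On chromosome 1 at 135279416 to 135289711, a stretch of 10.3 kb, transgenic SOX13lo had 12 peaks and transgenic SOX13hi 12, whereas SOX13hi had 0, SOX13lo 2 and DP 1 in their full lists. The highest-scoring peak of transgenic SOX13lo there, at 135279416 to 135280059, had a score of 780 and stood above 99.95% of its list, and that of transgenic SOX13hi above 89.8% of its list. The 2 SOX13lo peaks had scores of 13 and 8. Percentiles at this and the next loci are within full lists of unlike length, from 32167 autosomal peaks in transgenic SOX13lo to 110707 in DP. Sox13 is on chromosome 1 in the RefSeq annotation of another build, GRCm38, but this locus was not assigned to a gene, since no gene positions on mm9 were used here.

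On chromosome 2 at 27351315 to 27358176, over 6.86 kb, transgenic SOX13lo had 19 peaks and transgenic SOX13hi 22. SOX13hi had 2 peaks there, SOX13lo 4 and DP 12. The highest of them stood above 96.7% of the list in transgenic SOX13lo and 92.3% in transgenic SOX13hi, but above only 27.98% in SOX13hi and 37.4% in SOX13lo. DP lay between by percentile, at 71.1%, but within the longest list. Its highest score there was 24, next to the score of 23 at which DP was limited to equal length.

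On chromosome 4 at 129235658 to 129238680, over 3.02 kb, the libraries differed in rank more than in presence. Transgenic SOX13lo had 4 peaks, among them one with a score of 1365 at 129235658 to 129235882 that stood above 99.97% of its list. Transgenic SOX13hi had 7 peaks, the highest above 99.92% of its list. SOX13hi had 2 peaks and SOX13lo 3, with their highest above 73.9% and 74.5%, and the 1 DP peak stood above 95.8%. The transgenic SOX13lo peaks at 129237057 to 129237130 (score 403) and 129238579 to 129238680 (score 155) were met in transgenic SOX13hi and in no other library.

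**Figure D5:**
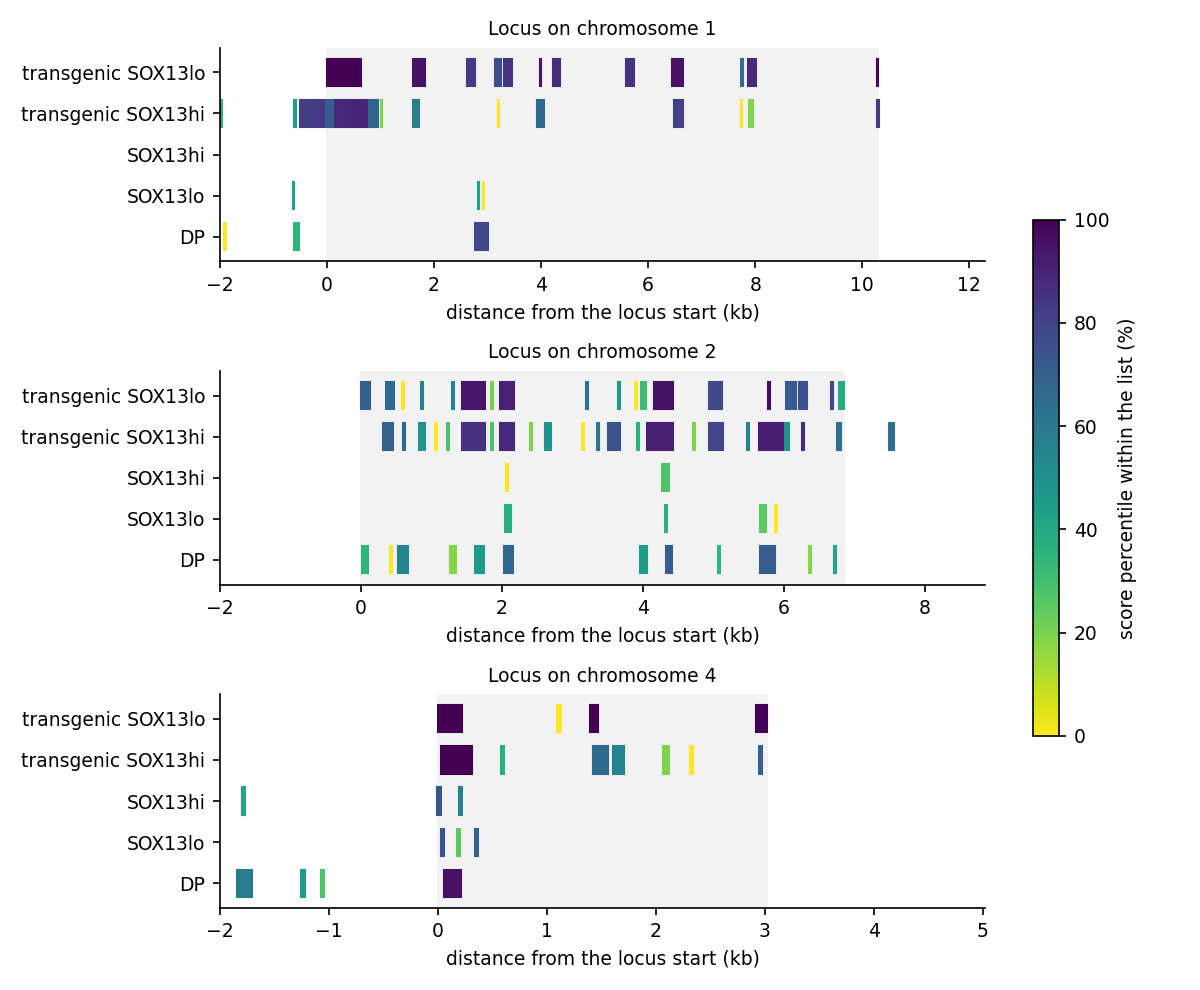
Peaks of the full lists of the 5 libraries (rows) at the 3 loci on chromosomes 1, 2 and 4 (panels), placed by distance from the start of the locus in kb (x axis), with the colour giving the percentile of each peak's score within its own list. The grey area is the locus, of 10.3, 6.86 and 3.02 kb. The upper 2 rows, both transgenic, hold 12 and 12 peaks at the locus on chromosome 1, where the SOX13hi row holds 0.

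Over all peaks, 423 autosomal regions were in both transgenic lists and in no other. Most were weak in transgenic SOX13lo, with a median score of 10. No such count for other pairs of libraries is at hand, so 423 cannot be read as many or few. Runs of at least 8 peaks of 1 list, in steps of up to 3 kb, were sought where the other list had at most 20% as many. At equal list length they numbered 11 for transgenic SOX13lo and 1 for SOX13hi. The number of runs in each list before that limit is not given here, so these counts have no background. Transgenic SOX13lo peaks were also narrower, and whether this adds runs was not tested. Over the full lists some of the 11 passed that limit. SOX13hi then had 7 peaks against 10 on chromosome 19 at 5488230, and 4 against 9 on chromosome 7 at 52959437. It had 4 against 10 on chromosome 1 at 90154473, 3 against 13 on chromosome 8 at 19974963 and 2 against 9 on chromosome 19 at 6398289. Others did not, such as the run on chromosome 17 at 84535852, with 0 against 8. The SOX13hi run, on chromosome 17 at 63229520 to 63233724, held 10 SOX13hi peaks, 8 SOX13lo peaks, 6 transgenic SOX13hi peaks and 0 of transgenic SOX13lo and of DP. Over the full lists it held 15 SOX13hi peaks, 16 SOX13lo peaks and 13 transgenic SOX13hi peaks, with transgenic SOX13lo and DP still at 0. Because the deposited transgenic SOX13lo list is the shortest, an absence from it cannot be told apart from a site that missed the calling threshold.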

How the data were processed

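Accessible DNA of 5 sorted thymocyte libraries, 1 per group, was profiled by ATAC-seq. The authors deposited 1 headerless peak list per library with a whole-number score per peak, and neither the labels nor the files say what the score counts. The submitters' processing notes name mm9 as the genome build. The aligner, the peak caller and its threshold, the read depth and any shift of reads for the transposase were not given in the sources used here. Every line of the SOX13lo list carries the name SOX13hi. That library was grouped by its label. Transgenic SOX13hi and DP share an index sequence, per the labels.

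Each list was limited by score to the number of peaks in the shortest, transgenic SOX13lo, ties broken in a fixed random order, and then to autosomes. Regions were merged over the 5 lists by overlap of at least 1 bp and counted by centre in 100 kb windows. Windows are named where their scaled difference was among the 5 largest in its direction, leaving out those with 20 or more regions in each of the 3 libraries compared. Named peaks are the 10 highest-scoring of each list that meet no peak of the other full list, and the 5 highest-scoring that do. The comparison and its lists were chosen with earlier results of these data known. Intervals are at 95%. The overlap functions were tested on simulated lists. Alternatives were other list lengths, overlap rules, joined peaks, chromosome sets and window grids. With gene positions at hand only for GRCm38, planned gene lists and cell type markers were not analysed here and no sequence is shown. Python 3.11.15, numpy 2.4.6, scipy 1.17.1 and matplotlib 3.10.9 were used.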

Additional observations from a re-analysis of the deposited data

Results flagged for a closer look

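Chromosome Y lies outside the autosomal comparison and was looked at separately. Of each 1000 peaks in lists of equal length, transgenic SOX13lo had 7.06 on chromosome Y (234 peaks), against 1.30 in SOX13hi (43 peaks) and 0.814 in SOX13lo (27 peaks). It drew attention because a signal in data left out of the comparison was higher than in the non-transgenic γδ libraries. On chromosome X the values were 22.7, 24.0 and 23.5 per 1000 in the same order.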

How the results depend on the processing

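No paired analysis was possible because each group holds 1 library, and none could be left out in turn. The share of transgenic SOX13lo peaks that met SOX13hi, 56.7% as reported, was 63.0% with all deposited peaks, 73.2% with the upper 50% of each list, 14.5% with a reciprocal overlap of 50%, 69.8% with centres within 200 bp and 60.8% with peaks within 150 bp joined. With settings added after seeing the data it was 64.9% for the 15000 highest scores, 63.95% for the 2000 highest, 69.8% for 200 bp around each centre and 36.5% at equal covered length. The share of SOX13hi peaks that met transgenic SOX13lo, 48.8% as reported, was in the same order 34.15%, 41.1%, 14.5%, 59.96%, 53.0%, 58.7%, 61.8%, 59.9% and 78.2%, and 50.04% without peaks tied at the limit. The difference between the shares met in SOX13hi and SOX13lo, -4.23 points as reported, was -5.23 with all peaks, -5.25 with the upper 50%, -0.0684 with centres within 200 bp, -2.91 with 15000 peaks and -0.0218 with 200 bp around each centre. It turned to 2.81 with reciprocal overlap, 1.29 (-0.801 to 3.36) with 2000 peaks and 3.42 at equal covered length, and the cause was not tested. The difference in Jaccard index, -0.148 points, became 5.84 with all peaks and 6.46 with the upper 50%, settings in which list lengths differ. It was 2.17 with 2000 peaks (interval -0.577 to 4.92) and 4.47 at equal covered length, where the number of peaks also differs. The ratio for regions of 1 fraction only, 0.876, turned to 1.07 with all peaks and 1.27 with 2000, and was 0.9885 with the upper 50%, 0.797 with peaks joined, 0.960 with 200 bp around each centre and 0.933 at equal covered length. The 98 windows with more regions in transgenic SOX13lo became 13 with the upper 50% and 54 with peaks joined, and the 55 with fewer became 32 with all peaks, 2 with the upper 50% and 22 with peaks joined. In windows high in SOX13lo, transgenic SOX13lo was nearer SOX13hi in 94.4% of 18 windows with the upper 50%, against 75.7%. For the named windows, 76 of 78 values under the alternatives stayed within their interval. These intervals are wide, and large changes can lie within them. With peaks joined, chromosome 2 at 58000001 went from -11.4 to -2.6 scaled regions, below the size of 5. Chromosome 2 at 27300001 went from 19.3 to 10.2 and chromosome 18 at 3000001 from 12.7 to 7.47. Chromosome 8 at 19900001 changed less, from 37.2 to 34.2. The dense window on chromosome 6 at 128700001 changed sign within its interval, from -0.373 to 3.20 with all peaks and 2.93 with the upper 50%. No other named window changed sign. The values outside their interval were the excesses on chromosome 8 at 19900001, 37.2 scaled regions that fell to 16.8 with the upper 50%, and on chromosome 1 at 90100001, 20.03 that fell to 3.55. Of the 20 named peaks without a counterpart, 8 had one with centres within 200 bp and 1 with peaks joined. Unknown read depth limits what an absent peak can show.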
